A study of Mus musculus with 6 samples.

Results

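Kcnq5-negative memory CD4 T cells of the normal kidney were taken here as the barcodes of the control CD4 library that held a T cell receptor complex transcript and none of 4 genes that mark other T cells of that library. A barcode was a member when it had at least 500 detected genes, at most 20% mitochondrial unique molecular identifiers (UMIs), at least 2000 UMIs, at least 1 UMI summed over Cd3d, Cd3e and Cd3g, and 0 UMIs of each of Kcnq5, Zbtb16, Foxp3 and Ccr7. This gave 2844 members among 8906 Cd3-positive cells of the library with at least 2000 UMIs (31.9%, exact 95% binomial interval 31.0 to 32.9%), out of 54039 barcodes in the 6 libraries together. The 4 genes at 0, and the depth needed to call them 0, chose the members, so every difference between members and the remaining 6062 Cd3 cells of the library is given as a description.

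The study sorted live CD45+ TCR+ T cells from the kidneys of male wild-type C57BL/6J mice aged 7 to 8 weeks into CD4+, CD8+ and double negative (DN, CD4- CD8-) fractions for 10x Genomics 3' single-cell RNA sequencing. Kidneys were normal (Ctrl) or came from mice in which both renal pedicles had been clamped for 30 minutes and released (ischemia-reperfusion, IR). Each of the 6 groups was 1 library, so differences are given without a test and without a check over replicates. How many mice contributed to a library is not given in the sources used here.

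CD4 T cells carry an αβ receptor that reads peptides on MHC class II. After activation they lose the lymph-node homing program of naive cells (such as Ccr7, the receptor for lymph-node chemokines) and gain adhesion molecules such as Cd44, and part of them settle in tissues as resident memory cells carrying Cd69, Cxcr6 and the collagen receptor Itga1. Th1 cells among them make interferon gamma under the transcription factor T-bet, encoded by Tbx21. Kcnq5 encodes a voltage-gated potassium channel best known from neurons, Zbtb16 encodes PLZF, the factor of innate-like T cells such as NKT cells, and Foxp3 is the factor of regulatory T cells. In the GENCODE annotation of the same mouse build, GRCm38, Kcnq5 lies on chromosome 1, 21398403 to 21961942, and 555851 bases of it are intron.

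The control CD4 library held 10090 barcodes and 75191397 UMIs. Members were somewhat shallower than the other Cd3 cells, with a median of 6822 against 7853 UMIs and 2631 against 2831 detected genes. Mitochondrial UMIs made up 2.11% of all their UMIs against 2.27%. Levels are given in CPM, the UMIs of a gene per 1000000 UMIs summed over the cells of a class after mitochondrial and ribosomal protein genes and Malat1 were left out, with exact 95% Poisson intervals in parentheses. These sums were 15634393 UMIs in members and 42353274 in the other cells. Intervals cover counting error only, not differences between mice. A gene was called where it differed at least 2-fold and reached 10 CPM in the higher class, and the 4 rule genes were left out of all calls. Shares of cells with a gene are given after each cell had been thinned at random to 2000 UMIs, unless stated otherwise. Barcode sequences recurring in another library numbered 35 among the members (1.23%) and 119 among the 8906 Cd3 cells (1.34%).

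Because a class defined by zeros can grow as depth falls, the member share was followed across depth. It was 44.0% among Cd3 cells with at least 2000 and under 3000 UMIs (249 of 566), 36.0% at 6000 to under 8000 UMIs (1024 of 2846), and 9.0% at 15000 UMIs and above (55 of 611). When the Kcnq5-positive cells were thinned to 2000 UMIs, 464 of 1953 (23.8%, 21.9 to 25.7%) showed no Kcnq5 UMI. A zero in a member near 2000 UMIs is therefore weaker evidence of absence than a zero in a deep one. The other 6062 Cd3 cells were made up chiefly of 2745 cells with both Kcnq5 and Zbtb16, 1953 with Kcnq5 as the single rule gene found, 514 with Ccr7 alone, 278 with Zbtb16 alone and 167 with Foxp3 alone. The classes called Zbtb16-positive, Foxp3-positive and Ccr7-positive may overlap and may hold Kcnq5, whereas Kcnq5-positive cells are the 1953 with Kcnq5 alone. In all, Kcnq5 was found in 5068 of the 8906 cells, Zbtb16 in 3122, Ccr7 in 737 and Foxp3 in 386.

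The markers given with the label, Cd4, Cd5 and Slamf1, were looked at first. They were chosen with earlier results of these data known, so their levels describe the members and do not check the label. Cd4, the MHC class II coreceptor, stood at 294 CPM (285 to 303) in members and 167 CPM (163 to 171) in the other cells, a 1.76-fold difference. Cd5, an inhibitory receptor whose level follows the strength of receptor signalling, stood at 441 CPM (430.4 to 451) against 232 CPM (228 to 237). Slamf1, a self-binding adhesion and costimulatory receptor, stood at 336 CPM (327 to 346) against 194 CPM (189.9 to 198). All 3 were higher in members, and none reached 2-fold. At 2000 UMIs a cell, Cd4 was seen in 37.7% of members and 22.6% of the others, Cd5 in 43.7% against 26.6%, and Slamf1 in 35.2% against 23.0%. None of the 3 was seen in 24.0% of members against 45.4% of the others, while all 3 were seen together in 6.29% (179 members) against 1.88% (114 cells). At their own depth, 73.6% of members had a Cd4 UMI, whereas Cd8a had 1 UMI over all members and Cd8b1 4.41 CPM.

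None of these markers belonged to members alone. Cd4 was 223 CPM in cells with Kcnq5 as the single rule gene, 245 CPM in Ccr7-positive cells, 210.3 CPM in Foxp3-positive cells and 118 CPM in Zbtb16-positive cells, so members stood highest and Zbtb16-positive cells lowest. For Cd5 the Foxp3-positive cells were at 474 CPM (449.6 to 499), above the members, and the Zbtb16-positive cells were at 157 CPM. Slamf1 was 274 CPM in the Kcnq5-positive cells and lowest, at 107 CPM, in the Ccr7-positive cells. Cd6, a scavenger receptor family partner of Cd5, was 400.0 CPM in members and 253 in the others.

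**Figure D1:**
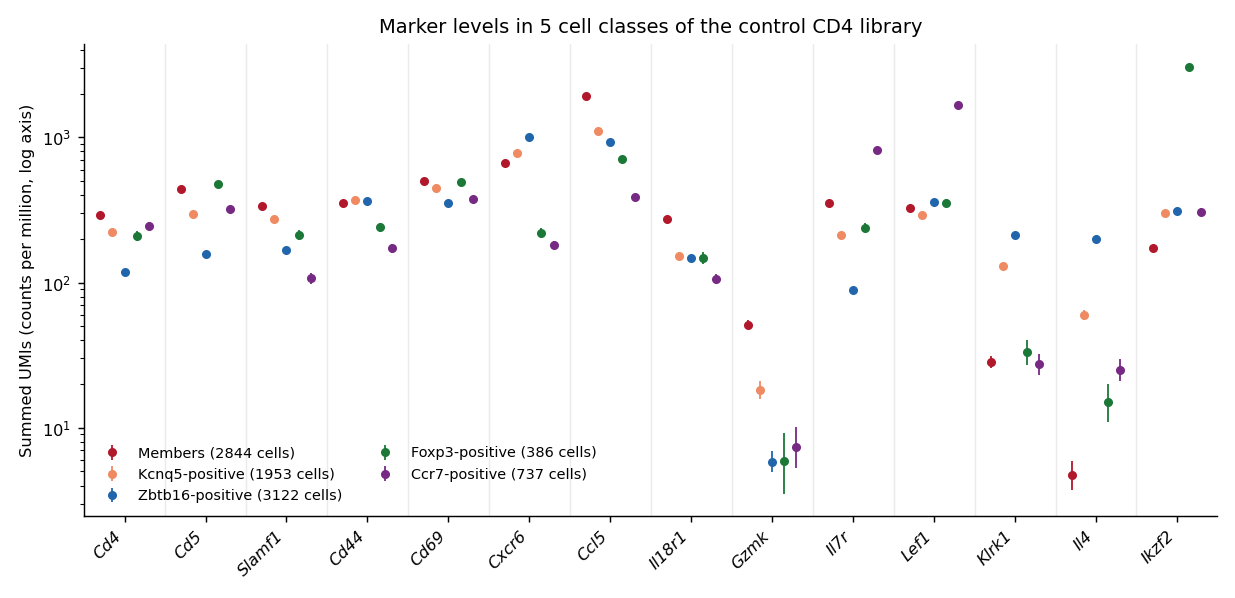
Level of 14 genes (CPM, log axis) in the 2844 members and in cells of the control CD4 library with Kcnq5 alone (1953), Zbtb16 (3122), Foxp3 (386) or Ccr7 (737), where the last 3 classes may overlap. Points are levels and bars are exact 95% Poisson intervals. Members are highest for Cd4, Ccl5 and Gzmk, while Lef1 is highest in Ccr7-positive cells.

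Genes of T cell receptor signalling lay on both sides of the other cells. Of 14 tested genes of the list, which holds Cd4 and Cd5, 9 were above the level in the other cells, 5 were below it and none was called in either direction, with a median log2 ratio of 0.26 beside 0.0077 over all 8842 genes tested. Cd247, the signalling zeta chain, was 615 against 452 CPM. The adaptor Lat was 441 against 332 CPM and the kinase Lck 718 against 581 CPM. The receptor alpha constant gene Trac was 955 against 775 CPM, while the beta constant gene Trbc1 was 788 against 877 CPM. In the SLAM family of 7 genes none was called, and Slamf1 had the largest ratio. Sh2d1a, which encodes the adaptor SAP that carries SLAM signals, lay lower in members, at 164 against 223 CPM.

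Genes of memory and tissue residency were found in members, and none of 17 tested was called, with 9 above the other cells, 8 below and a median log2 ratio of 0.038. Cd44, the hyaluronate receptor of antigen-experienced T cells, was 354 CPM (345 to 364) in members and 336 CPM (331 to 342) in the others, against 172 CPM in Ccr7-positive cells, and its log2 ratio over the other cells turned from 0.074 to -0.12 with the rule applied after thinning. Itga1 was 306 against 225 CPM, with 55.2 CPM in Ccr7-positive cells. Cxcr6, a chemokine receptor of resident T cells, was 663 CPM in members, below the 809 CPM of the others and above the 181 CPM of Ccr7-positive cells. Cd69, which holds cells in tissue, was 503 against 389.9 CPM. The signalling regulator Rgs1 was 922 against 640.4 CPM, and the calcium-binding protein gene S100a4, with the largest ratio of the list, was 845 against 523 CPM. Itgae, the integrin CD103 of epithelial resident cells, was low in both, at 4.67 and 6.68 CPM. Rgs2, a related signalling regulator, had the lowest ratio of the list, at 164 against 251 CPM.

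Genes of the naive list lay on both sides of the other cells, and their direction depended on how depth was treated. Lef1, a transcription factor of naive and stem-like T cells, was 329 CPM (319.6 to 338) in members, 485 CPM (479 to 492) in the other cells and 1667 CPM (1631 to 1702) in Ccr7-positive cells. The chromatin organiser Satb1 was 228 against 807 CPM in the others, and the secreted protein gene Igfbp4 was 15.8 against 40.9 CPM. Both were called lower, and 5 of 11 tested genes lay above the other cells, with a median log2 ratio of -0.56. Il7r, the survival receptor shared by naive and memory T cells, went the other way, at 352 CPM (342 to 361) against 214 CPM (209.6 to 218), with 819.7 CPM in Ccr7-positive cells. With the rule applied after every cell had been thinned to 2000 UMIs, 7 of the 11 lay above and the median turned to 0.62. At that depth Satb1 was still called lower, at a log2 ratio of -1.44, the call of Igfbp4 was lost (-0.014) and Il7r was called higher (1.03), while the T cell factor gene Tcf7 stood at 0.77 and the recirculation factor gene Klf2 at 0.62.

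Across the library, 50 of 8842 genes were called higher in members (0.565%) and 141 were called lower (1.59%), with a median log2 ratio of 0.0077. By list, innate-like and NK receptor genes had 12 of 17 tested called lower, regulatory T cell genes 4 of 9 lower, Th17 genes 2 of 3 lower (the membrane protein genes Tmem176a and Tmem176b) and cytotoxic genes 2 of 6 higher. Since the rule removed Zbtb16-positive and Foxp3-positive cells, the first 2 of these counts follow in part from how members were chosen. With the rule applied after thinning, the counts of these lists were 12 of 17 lower, 2 of 9 lower, 1 of 3 lower and 2 of 6 higher. Over all lists 34 of 172 genes tested both ways then changed sign, none of them called either way. Not all of these ratios were small, with log2 ratios going from -0.89 to 0.20 for Stmn1 and from -0.85 to 0.28 for Birc5. Outside the lists the histone gene Hist1h1b, called lower at -1.09, went to 0.15. The direction of some ratios thus depended on this choice.

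**Figure D2:**
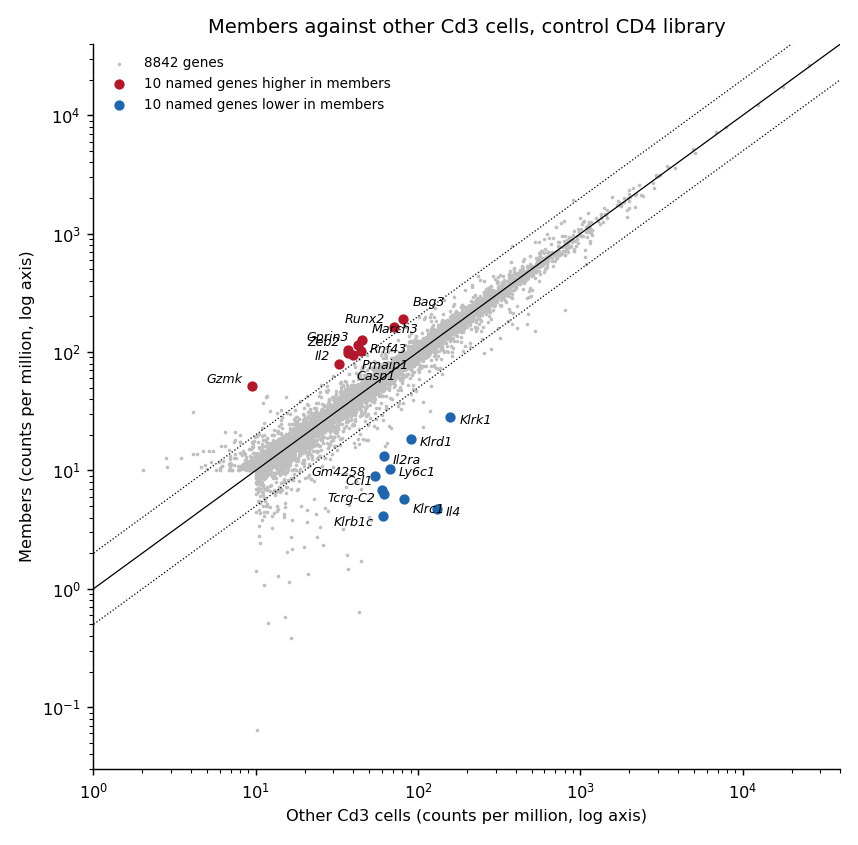
Level of 8842 genes (CPM, log axes) in members (vertical) against the other Cd3 cells of the control CD4 library (horizontal), 1 point a gene, with dotted lines at a 2-fold difference. Gzmk, Il2, Zeb2 and Casp1 lie above the upper line and Il4, Klrb1c, Klrc1 and Klrk1 lie below the lower one, while most genes lie between the lines.

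Ccl5, a chemokine stored and released by memory and effector T cells, was the tested Th1 gene with the largest ratio. It stood at 1924 CPM (1903 to 1946) in members and 906 CPM (897 to 915) in the other cells, a log2 ratio of 1.09 (1.06 to 1.11) or 2.12-fold, and was seen in 61.9% against 41.1% of cells. It is encoded on chromosome 11, 83525778 to 83530518 (GRCm38). The Kcnq5-positive cells held 1104 CPM, the Zbtb16-positive cells 923 CPM, the Foxp3-positive cells 706 CPM and the Ccr7-positive cells 390.0 CPM. Members were thus the highest of the 5 classes for Ccl5. Il18r1, the interleukin 18 receptor chain, was 276 CPM (267 to 284) in members against 145 CPM (141 to 148), and its partner chain Il18rap was 123 against 104 CPM, a small difference that turned to a log2 ratio of -0.18 with the rule applied after thinning.

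Several other Th1 genes differed little. Tbx21 was 305 in members against 288 CPM in the others, and the interleukin 12 signal transducer Stat4 was 671 against 658 CPM. Interferon gamma itself, Ifng, was 495 against 424 CPM, and the chemokine receptor Cxcr3 was 426 against 363 CPM. Tnf stood further apart, at 198 against 119 CPM. Ly6c2, a surface protein of activated and innate-like T cells, was lower in members at 152 against 529 CPM, and reads of the Ly6c pair are uncertain because the copies are near-identical. Of 12 tested Th1 genes 1 was called higher (Ccl5) and 1 lower (Ly6c2), with a median log2 ratio of 0.23 and 9 of the 12 above the other cells. After thinning and renewed use of the rule 5 of the 12 lay above and the median was -0.077, with Tbx21 at -0.14 and Stat4 at -0.15. The chemokine receptor gene Ccr2 then stood at -0.93 and the interleukin 12 receptor gene Il12rb2 at -0.73. At 2000 UMIs a cell, Cxcr3 was seen in 46.1% of members, Tbx21 in 34.9% and Ifng in 38.4%.

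Il17a, Il23r, Cxcr5 and Il21, which mark other helper programs, were each low in members. The Th17 cytokine gene Il17a was limited to 4 UMIs in 1 member, and the Th17 receptor gene Il23r stood at 1.28 CPM in members and 2.12 in the others. Cxcr5, the follicular homing receptor, was 4.16 against 3.85 CPM, and Il21 was 1.15 against 9.52 CPM. Gata3, the Th2 factor that many T cells also use, was 134 against 185 CPM. The Th2 cytokine gene Il4 was 4.73 CPM (3.72 to 5.94) in members against 131 CPM (127 to 134) in the others, 27.6-fold lower, with a UMI in 52 members at their own depth. Il4 was the 1 gene called among 5 tested Th2 genes, and none of 6 tested follicular helper genes was called. In Zbtb16-positive cells Il4 stood at 199.9 CPM.

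Among helper ligands, Il2, the T cell growth factor, was 79.4 CPM (75.0 to 83.9) in members against 32.4 CPM (30.7 to 34.1), 2.45-fold higher and seen in 10.4% against 4.87% of cells. Cd40lg, the ligand with which CD4 cells activate B cells and myeloid cells, was 448 against 320.1 CPM. Csf2, which encodes the growth factor GM-CSF, was 4.29 against 23.4 CPM and was called lower. Il2 and Csf2 were the 2 genes called among 8 tested.

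The granzyme genes Gzma and Gzmk were called higher in the cytotoxic list. Gzmk, a serine protease of memory T cells on chromosome 13, 113171608 to 113225908, was 51.4 CPM (47.9 to 55.0) in members against 9.44 CPM (8.54 to 10.4), a log2 ratio of 2.44 (2.27 to 2.62) or 5.44-fold, and was seen in 7.45% against 1.35% of cells. Its 10 highest members held 7.35% of its UMIs, so it was spread over many cells. Gzma was 31.0 against 4.13 CPM, but at their own depth only 32 members had a UMI and the 10 highest held 90.5% of its UMIs. The pore-forming protein gene Prf1 was 11.2 against 16.3 CPM and Gzmb 15.5 against 14.1 CPM. Eomes, a factor of cytotoxic memory cells, was low at 2.17 against 0.378 CPM.

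The genes with the largest ratios at 50 CPM or more in members were, after Gzmk, the transcriptional repressor Zeb2 (105 against 37.2 CPM), the membrane ubiquitin ligase gene March3 (125 against 45.4) and Gprin3 (115 against 42.4). Casp1, the inflammasome protease that matures interleukins 1β and 18, was 98.8 CPM (93.9 to 104) against 37.0 CPM (35.2 to 38.9). Then came Il2, the pro-apoptotic Noxa gene Pmaip1 (94.3 against 39.5 CPM), the Hsp70 co-chaperone gene Bag3 (190.1 against 81.2), the transcription factor gene Runx2 (164 against 71.4) and the ubiquitin ligase gene Rnf43 (101 against 44.4). Several more genes were picked out after their values had been seen. Itga4, the α4 integrin chain through which T cells bind VCAM-1, was 788 against 378 CPM and was seen in 61.9% against 32.0% of cells. Casp4, which senses bacterial lipopolysaccharide in the cytosol, was 88.0 against 43.1 CPM, and the oxysterol receptor gene Gpr183 was 235 against 127 CPM. The inhibitory receptor genes Lilrb4a (42.5 against 11.7 CPM) and Lilr4b (41.4 against 11.5 CPM) are near-identical copies, so the split of UMIs between them is uncertain.

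The lowest ratios at 50 CPM or more in the other cells were led by Il4 and by receptors shared with natural killer cells. Klrb1c, the NK1.1 antigen, was 4.16 CPM (3.21 to 5.30) in members against 60.9 CPM (58.6 to 63.3), and Klrc1, encoding the inhibitory receptor NKG2A, was 5.76 against 81.9 CPM. Klrk1, encoding the activating receptor NKG2D, was 28.3 CPM (25.8 to 31.1) against 158 CPM (154 to 162), 5.58-fold lower, and Klrd1, encoding the CD94 chain that pairs with NKG2A, was 18.4 against 90.5 CPM. The receptor gamma constant gene Tcrg-C2 was 6.27 against 61.9 CPM and Ly6c1 10.4 against 67.2. Gm4258 was 8.89 against 54.0 CPM. The chemokine gene Ccl1 was 6.78 against 60.0 CPM, with 81.1% of its member UMIs in 10 cells. Nkg7, a granule protein gene of the same list, was level within counting error, at 790.2 CPM (776 to 804) against 787 CPM (779 to 796). The median log2 ratio of the 17 tested innate-like and NK receptor genes was -2.30.

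In the regulatory T cell list, the interleukin 2 receptor alpha chain gene Il2ra was 13.1 in members against 61.4 CPM and 150.1 CPM in Foxp3-positive cells. Ikzf2, encoding Helios, was 172 against 472 CPM. The TNF receptor family genes Tnfrsf9 (18.0 against 48.8 CPM) and Tnfrsf4 (37.4 against 80.3 CPM) were called lower with them. The checkpoint receptor gene Ctla4, at 92.0 against 162 CPM, was lower without being called. When the rule followed thinning, Il2ra (log2 ratio -2.07) and Tnfrsf9 (-1.01) kept their call and Ikzf2 (-0.75) and Tnfrsf4 (-0.50) lost theirs.

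Apart from Kcnq5, which the rule used, ion channel genes of T cells were near level. None of 13 tested was called, and their median log2 ratio was 0.045, or -0.050 with the rule applied after thinning. Kcnn4, the calcium-activated potassium channel of activated T cells, was 129 against 114 CPM. Kcna3, the voltage-gated channel of effector memory T cells, was low in both, at 6.33 and 6.45 CPM. The 2-pore channel gene Kcnk5 had the largest ratio, at 74.6 against 44.9 CPM.

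Genes that respond to dissociation and stress differed little. Of 12 immediate early genes none was called (median log2 ratio 0.14, with Fos at 1256 against 1158 CPM). Of 9 heat shock genes Bag3 was called, and the inducible chaperone gene Hspa1a was 1347 against 991 CPM. Of 11 interferon-stimulated genes, Ifit3 (42.7 against 20.7 CPM) and Rsad2 (17.3 against 8.00 CPM) were called higher, and 10 of the 11 lay above the level in the other cells. Both calls were lost with the rule applied after thinning, at log2 ratios of 0.68 and 0.75. None of 8 cell cycle genes was called, and all 8 lay lower in members, with a median log2 ratio of -0.52. That direction was lost with the rule applied after thinning, when 6 of the 7 then tested lay above, with a median of 0.10 and Mki67 at 0.25.

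Markers of other cell types were measured beside these values. MHC class II genes with Cd74 summed to 178 CPM in members and 93.9 CPM in the other cells, and 3 of these 4 genes (H2-Aa, H2-Ab1 and H2-Eb1) were called higher. With the rule applied after thinning H2-Aa alone of them was called, at a log2 ratio of 1.11. A UMI of the list was found in 484 members (17.0%) and in 1010 of the others (16.7%), and 10 members held 72.4% of the H2-Aa UMIs. Myeloid genes summed to 24.2 against 13.2 CPM, with S100a8 and S100a9 at 0 UMIs in both and C1qb at 11.2 against 4.89 CPM, called higher with 69.7% of its member UMIs in 10 cells. Among B cell genes Ms4a1 stood at 0.0640 CPM and Cd79a at 0.768 CPM in members, and Ighm, at 163 CPM, made up nearly all of the sum of 165 against 192 CPM. Kidney tubule genes summed to 3.97 against 2.34 CPM and erythroid genes to 2.62 against 1.70 CPM, with no gene of either list at 10 CPM. Endothelial genes summed to 126 against 133 CPM, nearly all of it Pecam1, which T cells also carry, and Cdh5 stood at 0.320 CPM in members. The NK cell list summed to 20.5 against 76.7 CPM with 1 of 2 tested genes called lower, and the γδ T cell list to 11.6 against 78.8 CPM with both tested genes called lower. Trav11, the segment of invariant NKT cell receptors, stood at 0.192 against 4.77 CPM. When the 523 members with a C1q or class II UMI were left out together with the other cells that had one, 51 genes were called higher and 141 lower, close to the counts above. Doublets were not called.

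A narrower comparison kept Zbtb16, Foxp3 and Ccr7 at 0 on both sides and set members beside the 1953 cells with Kcnq5. Here 20 of 8785 genes were called higher in members (0.228%) and 64 lower (0.729%). With cells thinned to 2000 UMIs, 31 were called higher. These values share the members with the comparison above and are not a second sample. Ccl5 was 1924 against 1104 CPM (log2 ratio 0.80) and Gzmk 51.4 against 18.3 CPM (log2 ratio 1.49). The label genes were closer than before, with Cd4 at 294 against 223 CPM, Cd5 at 441 against 295 CPM and Slamf1 at 336 against 274 CPM.

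Il18r1 (276 against 153 CPM), Zeb2 (105 against 58.8 CPM) and March3 (125 against 62.0 CPM) were again higher in members. The interferon-induced chemokine gene Cxcl10 was 59.6 against 21.7 CPM, with 67.1% of its member UMIs in 10 cells. Lower in members were Klrc1 (5.76 against 74.2 CPM), Il4 (4.73 against 59.7), Klrk1 (28.3 against 129), Klrd1 (18.4 against 75.8) and Ramp1, which encodes a partner of the receptor for the neuropeptide CGRP (23.2 against 70.3). Innate-like and NK receptor genes had 9 of 16 tested called lower. Zbtb16 was 0 in both classes by choice, and such a zero can be a missed transcript. In the library's Cd3 cells Zbtb16 was found in 3122 of 8906 at their own depth and in 19.2% at 2000 UMIs.

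Against these Kcnq5-positive cells the naive list turned around. Called higher in members were Igfbp4 (15.8 against 5.12 CPM), Dapl1 (21.4 against 7.08 CPM) and the α-actinin gene Actn1 (27.2 against 11.3 CPM), 3 of 11 tested. Satb1 stayed lower, at 228 against 423 CPM. Of memory and residency genes none of 17 was called, and Cxcr6 was 663 against 784 CPM.

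The rule's threshold on Kcnq5 lay between 0 and 1 UMI. The 341 cells with exactly 1 Kcnq5 UMI, and none of the other 3 rule genes, had Ccl5 at 1569 CPM against 1924 CPM in members and Cd4 at 263 against 294 CPM. Klrk1 was 34.0 against 28.3 CPM and Gzmk 27.3 against 51.4 CPM. Il4 was 23.7 against 4.73 CPM, Klrc1 17.0 against 5.76 CPM and Klrb1c 11.3 against 4.16 CPM. The counting intervals overlapped for Cd4 and Klrk1 and were apart for the other 5 genes.

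To hold depth nearly level, cells with 6000 to under 10000 UMIs were ordered by their Kcnq5 UMIs. Members numbered 1571 in this range, and the cells with 1, 2 to 4, 5 to 9, 10 to 19 and 20 or more Kcnq5 UMIs numbered 180, 222, 222, 254 and 145. Their median UMIs ran from 7169 to 7857. Over these steps Ccl5 went from 2086 CPM in members through 1775, 1354, 1244 and 878 to 868 CPM. Cd4 was 282, 264, 269, 237, 179.8 and 112 CPM over the same steps, falling mainly above 10 UMIs. Gzmk was 50.6 CPM in members and 1.09 CPM at the highest step.

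In the other direction Klrk1 was 27.4, 45.1, 67.5, 138, 217 and 306 CPM, a steady climb. Il4 went from 4.15 to 134 CPM with a step out of order, 29.1 CPM at 1 UMI and 15.5 CPM at 2 to 4 UMIs. Satb1 went from 201 CPM in members through 221, 186, 331 and 561 to 1043 CPM, lowest at 2 to 4 UMIs. Cxcr3 was 435 CPM in members and 381 CPM at the highest step, and Tbx21 299.6 and 345 CPM. For Ccl5 and Klrk1 the members thus stood at 1 end of a graded series.

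**Figure D3:**
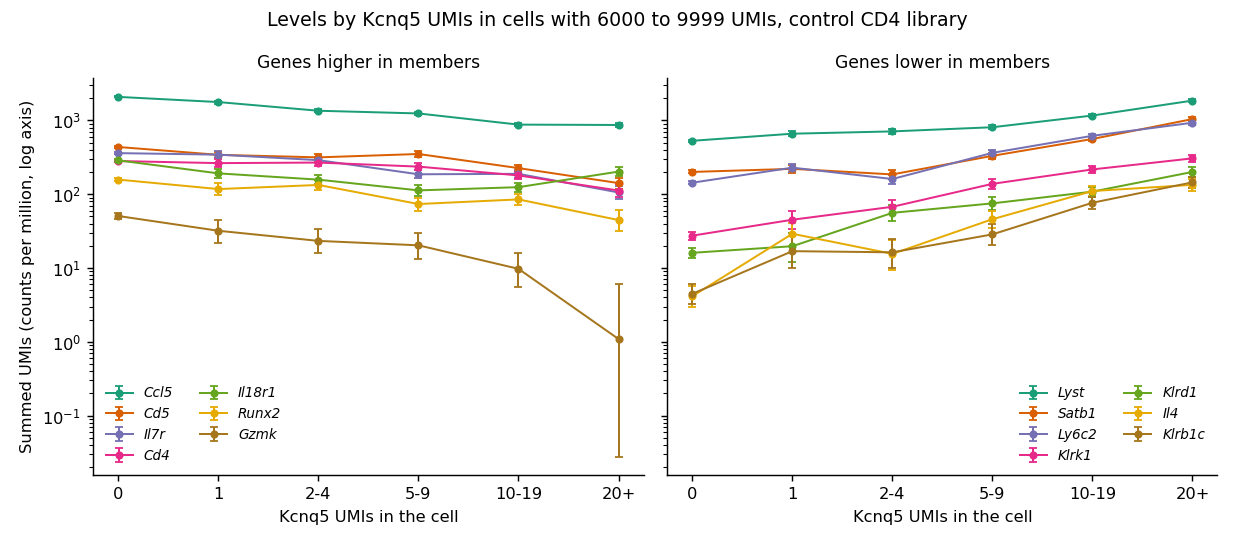
Level of genes (CPM, log axis) by the number of Kcnq5 UMIs in cells of the control CD4 library with 6000 to under 10000 UMIs and no Zbtb16, Foxp3 or Ccr7 UMI. Points are levels and bars are exact 95% Poisson intervals, for 1571 members at 0 and 180, 222, 222, 254 and 145 cells at the higher steps. Ccl5, Cd4 and Gzmk are highest in the members and Klrk1 is lowest there, while Satb1 is lowest at 2 to 4 Kcnq5 UMIs.

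Cd4 and Ccl5 were higher in members at both ends of the depth range. Among cells with at least 10000 UMIs, where zeros of the rule genes carry most evidence, 279 members had Cd4 at 296 CPM against 159 CPM in 1568 other cells and Ccl5 at 1553 against 935 CPM. In those cells Gzmk was 33.8 against 9.45 CPM, Klrk1 38.4 against 126 CPM and Il4 4.27 against 143 CPM. Below 4000 UMIs, 430 members had Cd4 at 405 CPM against 238 CPM in 603 other cells and Ccl5 at 1065 against 334 CPM.

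**Figure D4:**
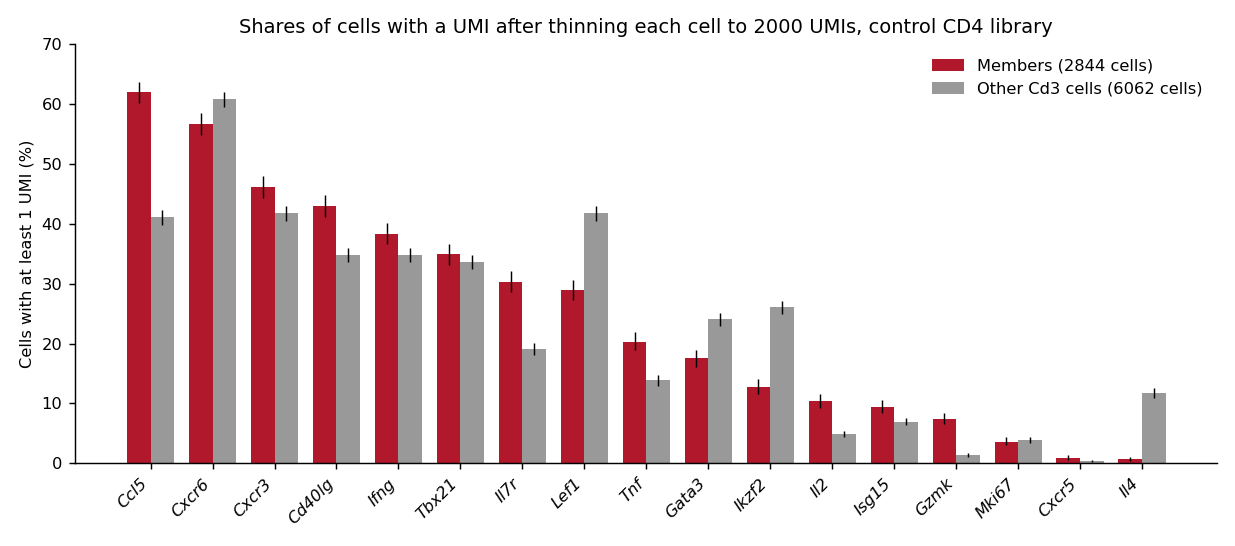
Percent of cells with at least 1 UMI of each of 17 genes after thinning every cell to 2000 UMIs, in the 2844 members and the 6062 other Cd3 cells, with exact 95% binomial intervals as bars. Ccl5 is seen in 61.9% of members and 41.1% of the others, and Gzmk in 7.45% and 1.35%.

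Members were not uniform. Cells were split by whether a gene was seen at 2000 UMIs, and the genes set beside each split were chosen after their values were seen. The split by Ccl5, seen in 1761 members (61.9%), separated levels of effector and naive genes. Ccl5-positive members had Nkg7 at 945 CPM against 516 CPM in the rest, Zeb2 at 135 against 51.8 CPM and Ifng at 562 against 377 CPM. Satb1 was 109 against 439 CPM, Lef1 218 against 524 CPM and Il7r 304 against 435 CPM. Cd4 itself was 286 against 308 CPM. Free RNA in droplets can also give UMIs, and at the same 2000 UMIs a cell Ccl5 was seen in 15.5% and Gzmk in 0.814% of Ccr7-positive cells.

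Lef1 was seen in 821 members (28.9%). These held Igfbp4 at 52.2 against 1.77 CPM and Bach2, a factor that restrains effector differentiation, at 432 against 130.1 CPM. Their Ccl5 was 1604 against 2048 CPM and their Cd4 294 against 294 CPM. Their Satb1 was 554 against 102 CPM and their Dapl1 54.2 against 8.69 CPM, so genes of the naive list were concentrated in these members. For them these values go against the word memory in the label, although Cxcr6 was 580 against 695 CPM. Ccr7 was found in 737 of the library's 8906 Cd3 cells at own depth and in 3.82% at 2000 UMIs. Whether naive cells with a missed Ccr7 UMI were among them was not tested.

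Cxcr6 was seen in 1612 members (56.7%), with Itga1 at 374 against 219 CPM and Klf2, a factor that keeps T cells recirculating, at 296 against 649 CPM. Gzmk was seen in 212 members (7.45%), with Ccl5 at 2868 against 1852 CPM, Eomes at 8.99 against 1.65 CPM and Satb1 at 99.8 against 237 CPM. Gzma marked 18 members, with Zeb2 at 2012 against 91.7 CPM and Ccl5 at 15093 against 1834 CPM. In the Gzmk-positive members the level of Gzma was lower, at 10.8 against 32.6 CPM. The share of cells went the other way, with Gzma seen in 2 of these 212 members (0.943%) against 0.608% of the rest. Few members held most of the Gzma UMIs, as given above, so no direction is drawn from these values.

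Smaller sets of members carried other programs. Ikzf2 was seen in 365 members (12.8%), which had Ctla4 at 282 against 64.7 CPM and Tnfrsf4 at 132 against 23.8 CPM. The rule left out every cell with a Foxp3 UMI, so the lack of Foxp3 in these members was set by choice. Whether regulatory T cells with a missed Foxp3 UMI were among them was not tested. The interferon-stimulated gene Isg15 was seen in 269 members (9.46%), with Ifit3 at 289 against 16.2 CPM and Ifit1 at 307 against 23.2 CPM. The proliferation antigen gene Mki67 was seen in 104 members (3.66%), with the topoisomerase gene Top2a at 641 against 43.9 CPM and the tubulin regulator gene Stmn1 at 1035 against 22.8 CPM.

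The same rule was then applied to the other libraries. It was met by 5153 of 7972 Cd3 cells in control CD8 (64.6%), 505 of 9131 in control DN (5.53%), 3408 of 7371 in IR CD4 (46.2%), 1296 of 2542 in IR CD8 (51.0%) and 349 of 949 in IR DN (36.8%). The cells of IR CD4 that met the rule had a median of 2712 UMIs, far fewer than members. Among cells with at least 5000 UMIs the share was 30.0% in control CD4 and 30.5% in IR CD4. With every cell thinned to 2000 UMIs before the rule was applied, the share was 44.7% in control CD4 and 55.1% in IR CD4. At that depth Kcnq5 was seen in 47.0% of control CD4 and 21.9% of IR CD4 cells, and Ccr7 in 3.82% and 19.8%. The control files name Cell Ranger 5.0.1 in their headers and the IR files 6.0.1, so injury, library and software version cannot be told apart. The study reports default settings and version 6.0.1, and does not state whether intronic reads were counted.

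Within the IR CD4 library, cells that met the rule were set beside its other Cd3 cells, a comparison in cells that took no part in choosing the members. Of 8577 genes, 47 were called higher in the rule cells (0.548%) and 70 lower (0.816%), with a median log2 ratio of -0.077. These counts moved with the cells used, to 380 and 539 at 5000 UMIs or more and to 79 higher without cells with markers of other types, and centring by intron length raised the higher share of calls from 40.2% to 50.5%. Of the 50 genes called higher in members, 30 reached 10 CPM in this library and 15 were called higher here too, which is 30.0% of the 50 and 31.9% of the 47. These were Apobec2, Casp1, Casp4, Ccl5, Cx3cr1, Gprin3, Gzma, Gzmk, Ifitm3, Il2, Lair1, Lilr4b, Lilrb4a, Tmem37 and Zeb2. Casp4 lay near the limit, with a log2 ratio of 0.91 in control CD4 when the rule was applied after thinning. Of the 141 genes called lower, 41 were called lower here, 29.1% of the 141 and 58.6% of the 70.

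Ccl5 was 5522 CPM (5464 to 5580.4) in the IR rule cells and 1685 CPM (1657 to 1714) in the other IR cells, and Gzmk was 44.8 CPM (39.8 to 50.4) against 9.14 CPM (7.17 to 11.5). Lilrb4a (62.7 against 18.8 CPM) and Lilr4b (55.6 against 16.5 CPM), again uncertain as copies, were higher too. Gzma was 199 against 14.3 CPM, with a UMI in 81 cells. S100a4 was 912 against 335 CPM. Spp1, the gene of osteopontin, had the largest ratio among genes at 50 CPM or more in the IR rule cells (163 against 5.06 CPM), but 880 of its 1027 UMIs were in 1 cell.

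The label genes were higher in the IR rule cells as well, with Cd4 at 180.3 against 125 CPM, Cd5 at 197 against 133 CPM and Slamf1 at 87.8 against 57.9 CPM. Il4 was 37.1 against 122 CPM and Klrk1 59.7 against 128 CPM, both lower as in the control library and by smaller ratios. Il7r was 741 against 924 CPM, lower in rule cells where it had been higher in members. The other cells differed in make-up, with Ccr7 found in 1837 of 3963 in IR CD4 and in 737 of 6062 in control CD4. The ratios of the libraries thus set rule cells against different cells. The haemoglobin genes Hba-a1, Hba-a2 and Hbb-bs and the chemokine gene Ccl1 were called lower, but 10 of the other IR cells held 97.3% of the Hbb-bs UMIs and 96.8% of those of Ccl1. Each of these ratios changed sign in some of the alternatives that left cells out.

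When the rule was applied to thinned cells in both libraries, the log2 ratio of Ccl5 was 1.07 in control CD4 and 1.72 in IR CD4. That of Gzmk was 2.68 and 2.61, of Cd4 0.83 and 0.68, of Klrk1 -2.25 and -1.07, and of Il4 -3.57 and -1.57. The control and IR ratios of each of these 5 genes thus had 1 sign with 2000 total UMIs a cell, of which ribosomal protein genes took different shares in the libraries, and whether their sizes differ was not tested.

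**Figure D5:**
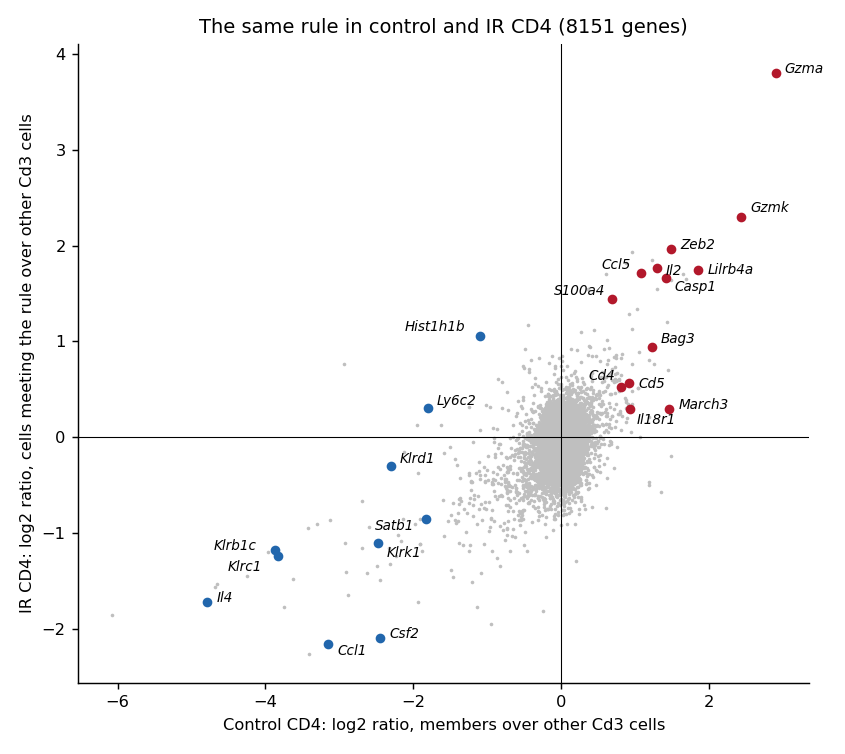
Log2 ratio of cells meeting the rule over the other Cd3 cells in the control CD4 library (horizontal) and in the IR CD4 library (vertical), 1 point a gene for 8151 genes at 10 CPM or more in at least 1 class of each library. Ccl5, Gzmk, Casp1, Zeb2 and Il2 lie above 0 on both axes, and Il4 and Klrk1 lie below 0 on both.

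Set directly beside members, the IR rule cells differed in many genes, with 737 of 9010 called higher (8.18%) and 1733 lower (19.2%) and a median log2 ratio of -0.31. The prevailing direction depended on scaling, since centring by intron length left 575 lower with 59.0% of calls higher against 29.8%, and keeping the ribosomal protein, mitochondrial and Malat1 features gave 357 higher and 2949 lower. The shift of the median ran with gene structure. The tenth of genes with the least intronic sequence had a median log2 ratio of 0.46, and the tenth with the most had -1.09, whereas members over the other control cells gave -0.018 and 0.029. The share of UMIs from ribosomal protein genes was 36.1% in IR rule cells against 16.3% in members. Differences between the 2 libraries are therefore given as uncentred values, to be read beside the median of -0.31, with injury, software version, depth and library not told apart.

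Uncentred, Ccl5 was 5522 CPM (5464 to 5580.4) in IR rule cells and 1924 CPM (1903 to 1946) in members, a log2 ratio of 1.52. Gzmk was 44.8 against 51.4 CPM, an uncentred log2 ratio of -0.20, which lay above the median of -0.31. Among genes at 50 CPM or more in the IR rule cells Spp1 had the largest ratio, through the 1 cell named above, followed by Gm50306 (205 against 2.75 CPM), the transferrin gene Trf (54.0 against 2.17), Nkain2 (79.7 against 3.26) and the cell adhesion gene Ntm (226 against 10.0). The lowest ratios at 50 CPM or more in members were those of Cmss1 (299 against 7226 CPM), Ifngas1 (8.40 against 94.8), Bag3 (19.5 against 190.1), Gm42418 (2916 against 26809) and Trerf1 (52.3 against 431). In uncentred list counts, 6 of 11 naive genes were called higher in IR rule cells, with Igfbp4 at 179 against 15.8 CPM and Lef1 at 342 against 329 CPM. Of 12 Th1 genes 2 were called higher and 6 lower, with Tbx21 at 92.2 against 305 CPM and Ifng at 650.4 against 495 CPM. Of 9 heat shock genes 5 were called lower and none higher, while of 12 immediate early genes 6 were called higher and none lower. Innate-like and NK receptor genes had 7 of 15 called higher and 2 lower, and regulatory T cell genes 5 of 9 higher and none lower.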

How the data were processed

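The deposited files hold raw UMI counts per gene and barcode for 6 libraries, 1 per group, made by the authors with Cell Ranger. The submitters' processing notes name version 6.0.1 and mm10, while the file headers give 5.0.1 for control and 6.0.1 for IR. Barcodes were kept at 500 or more detected genes and at most 20% mitochondrial UMIs, and comparisons used cells with at least 2000 UMIs.

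Members and gene lists were chosen with earlier results of these data known. Of 32285 features, 103 (mitochondrial, ribosomal protein, Malat1) were left out before counts were summed per class and scaled to CPM. In ratios, 3 counts stood in for a class without UMIs, and genes with 3 counts or fewer in both classes had no ratio. Log2 ratios carry 95% intervals from the counts. With 1 library a group the planned description was used without any p-value. Python 3.11.15, numpy 2.4.6, scipy 1.17.1 and pandas 2.3.3 were used, and edgeR 4.0.16 gave TMM factors for 1 alternative. Steps were tested on simulated data.

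Named genes were those of 26 lists (239 genes), the 10 largest ratios in each direction at 50 CPM or more for members against the other cells, and 5 for each other comparison, with receptor gene segments left out of that ranking. Other genes were named after their values were seen. Gene positions and intron lengths came from GENCODE, matched for 32235 features (99.8%). Alternatives changed the CPM minimum, the depth, the scaling and the cells left out. Doublets and background RNA were not modelled. A few genes of the planned lists are not reported here.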

Additional observations from a re-analysis of the deposited data

Results flagged for a closer look

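The linker histone gene Hist1h1b, a gene of dividing cells on chromosome 13, was called in opposite directions in the CD4 libraries. Its log2 ratio of rule cells over the other Cd3 cells was -1.09 in control CD4 (65.8 against 139.9 CPM, from 1029 and 5926 UMIs) and 1.05 in IR CD4 (29.5 against 14.2 CPM, from 186 and 115 UMIs). With the rule applied to cells thinned to 2000 UMIs the ratios were 0.15 and 1.86, so the opposite sign was not seen with 2000 total UMIs a cell. It was the single gene called in opposite directions. The difference between the libraries was not tested, since each was 1 library.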

How the results depend on the processing

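No paired analysis was possible because each group was 1 library. The limits are counting depth, 1 library a group, and zeros that may be missed transcripts. Counts follow in the order higher then lower, for members over the other cells (50 and 141), members over Kcnq5-positive cells (20 and 64), IR rule cells over other IR cells (47 and 70) and IR rule cells over members (737 and 1733). With no CPM minimum they were 932 and 1199, 682 and 848, 775 and 954, and 2731 and 2950. With a minimum of 50 CPM they were 15 and 41, 3 and 13, 10 and 21, and 398 and 954. Without a CPM minimum higher genes made up 43.7%, 44.6% and 48.1% of calls in the first and second comparison and between libraries, against 26.2%, 23.8% and 29.8%.

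Thinned cells gave 31 higher genes against Kcnq5-positive cells. Cells with at least 5000 UMIs gave 380 and 539 calls within IR CD4, and leaving out cells with a B cell, myeloid, erythroid or Cd8 UMI gave 79 higher there. Keeping the removed features gave 357 and 2949 calls between libraries, 10.8% of them higher. Centring by intron length gave 575 lower, 59.0% of calls higher, and 50.5% higher within IR CD4 against 40.2%.

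The member share of Cd3 cells was 44.7% in control CD4 and 55.1% in IR CD4 after thinning, 30.0% and 30.5% at 5000 UMIs, and 33.4% and 47.5% without the deepest 5% of cells. Unthinned, the member share with Ccl5 was 75.0%, Cxcr3 79.5%, Ifng 62.7%, Tbx21 64.6%, Gzmk 19.4%, Il2 30.2%, Gata3 42.2%, Cd40lg 73.5% and Cxcr5 1.93%, and at 5000 UMIs that of Ccl5 was 65.8%.

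Within IR CD4 some ratios changed sign. Hba-a2 went to 2.18 without the deepest 5% of cells, 1.47 without cells with markers of other types and 0.36 without haemoglobin-bearing cells. Hbb-bs and Hba-a1 each went to 0.25 without cells with markers of other types and 0.36 without haemoglobin-bearing cells. Ccl1 went to 0.091 without the deepest 5%. The cause was not tested. Leaving out haemoglobin-bearing, C1q or class II cells or shared barcodes, the rule after thinning and the Kcnq5 and depth steps were chosen after seeing the data. For members over the other cells 467 of 468 values kept their sign over 39 genes followed through every alternative, and Tbx21 at -0.14 with the rule applied after thinning did not. Against Kcnq5-positive cells 339 of 341 did, within IR CD4 112 of 120 and between libraries 121 of 121. With the rule applied after thinning 34 of 172 list genes changed sign in control CD4 and 19 of 174 in IR CD4. In control CD4 the median turned from -0.56 to 0.62 for naive genes, -0.52 to 0.10 for cell cycle, 0.23 to -0.077 for Th1, -0.11 to 0.010 for follicular helper and 0.045 to -0.050 for ion channel genes.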

Other observations

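Variable segments of the T cell receptor were left out of the ranking by ratio. Trbv13-2 was the single Vβ or Vα segment at 10 CPM or more in either class of control CD4, at 4.35 CPM in members and 10.6 CPM in the other Cd3 cells of control CD4. It held 7.16% of all Trbv UMIs in members and 19.1% in the others. In Zbtb16-positive cells it stood at 12.9 CPM.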
